A study of Mus musculus with 6 samples.

Results

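Marco, Pparg, Fabp4, Fabp5, Krt79, Plet1, Car4, Atp6v0d2, Cidec and Ear2 are 10 genes by which alveolar macrophages, the resident phagocytes of the airspace, are commonly told from other myeloid cells. They were followed here in M-MDSCs, the monocytic kind of myeloid-derived suppressor cell, which holds T cells in check. The genes were found by the gene name printed for each probe in the scanner files, which gave 9 genes and 12 probes, and Plet1 was found through the RefSeq accession of its 2 probes. All 14 probes passed the filter on dim probes, so all 10 genes were among the 22127 genes tested. Of these, Cidec passed through its signal in lung alone, and so did the dimmer probe of Car4, of Plet1 and of Atp6v0d2.

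The cells came from C57BL/6 mice and were sorted by flow cytometry from lung or from bone marrow. The 4 groups were treated lung, mock lung, treated bone marrow and mock bone marrow. Treated mice had received azacytidine, which inhibits DNA methyltransferases, with entinostat, which inhibits histone deacetylases, and mock mice had received vehicle. Each of 6 dual-colour arrays held a treated RNA in Cy5 and a mock RNA in Cy3 from 1 tissue, with 3 biological replicates per tissue. Each treated pool held RNA of 3 to 6 mice and each mock RNA that of 1 to 2, and the age of 6 to 8 weeks is given for mock mice only. Adjusted p values therefore measure the spread between these pools, and with 3 arrays per tissue their number limits the precision.

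Alveolar macrophages descend from fetal monocytes that settle in the lung around birth. There, granulocyte-macrophage colony-stimulating factor and transforming growth factor beta induce the nuclear receptor PPARg, and PPARg turns on genes for taking up, carrying and storing lipid. The cells clear surfactant and inhaled particles, and they carry scavenger receptors and fatty acid binding proteins in abundance. Bone marrow monocytes normally show little of this programme, and monocytes that enter the lung can acquire it.

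The share of spots well above background was 55.1% to 69.5% in the treated channel and 49.9% to 62.8% in the mock channel, and no spot was saturated. Csf1r and Ccr2, receptors that mark monocytes, were above background in every channel of every array, while Ly6c2 was not analysed here. No array had the dyes exchanged, so the dye cannot be told apart from the treatment. The tissues lay on different slides, so that slide and tissue also cannot be told apart. In these bulk samples fewer cells of a type and less RNA per cell cannot be told apart either.

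The first comparison asked how the genes differed between treated and mock M-MDSCs of the lung. All 10 genes rose in treated lung cells, by log2 ratios of treated over mock from 0.76 to 2.06 with a median of 1.18, and none fell. Krt79 and Plet1 rose most, 4.17-fold and 4.12-fold, followed by Ear2 at 3.35-fold. Fabp5 and Marco rose least, 1.71-fold and 1.7-fold. Adjusted p lay between 0.000254 and 0.0464 (limma's moderated test, two-sided, Benjamini-Hochberg over all genes tested, threshold 0.05). Of all genes tested, 33.9% passed in lung, 19.9% higher and 14% lower, with a median log2 ratio of 0.014 and a range from -0.48 to 0.77 between the 5th and the 95th percentile. With median centring in place of loess all 10 ratios stayed positive but 4 passed, those of Krt79, Plet1, Fabp4 and Atp6v0d2. The main fit shares a spread between lung and marrow arrays. With each tissue fitted alone 8 of the 10 passed in lung, while Marco (adjusted p = 0.135) and Pparg (adjusted p = 0.0538) did not.

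**Figure D1:**
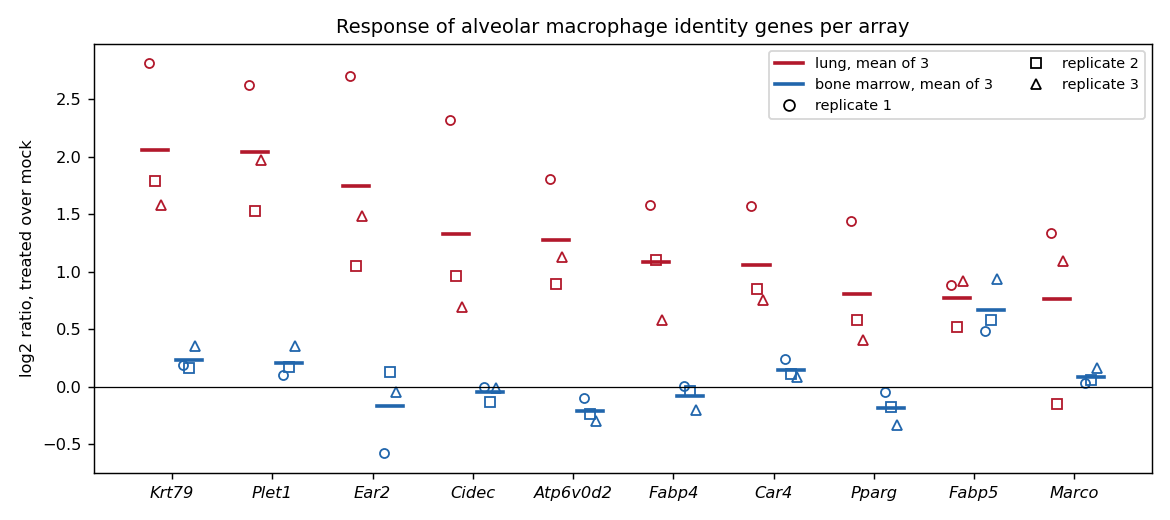
Log2 ratio of treated over mock on each array for the 10 genes, ordered by the lung mean, with lung in red left of bone marrow in blue, symbols for replicates 1 to 3 and a bar for the mean of 3 arrays. Lung means lie between 0.76 and 2.06, marrow means lie near 0 except for Fabp5 at 0.67, and the circle of lung replicate 1 is the highest lung point for 9 of 10 genes.

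The 2 genes with the highest ratios encode proteins outside the lipid programme. Krt79, a type II keratin, had log2 ratios of 2.81, 1.79 and 1.58 on lung arrays 1 to 3, a mean of 2.06 ± 0.66 (SD, n = 3, adjusted p = 0.000444). Its log2 levels were 12.96, 11.51 and 11.46 in treated lung, against 10.15, 9.72 and 9.88 in mock lung. Every treated level of Krt79 was above every mock level. Plet1, which encodes a lipid-anchored surface protein first described in placenta, had ratios of 2.62, 1.53 and 1.97, a mean of 2.04 ± 0.55 (SD, n = 3, adjusted p = 0.000254). Its levels were 13.08, 11.76 and 12.30 in treated lung, against 10.47, 10.23 and 10.32 in mock lung, and these groups did not overlap either.

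Among the enzymes and pump subunits, Ear2, a secreted ribonuclease of the eosinophil-associated family, had the highest ratio. Its ratios were 2.70, 1.05 and 1.48 on lung arrays 1 to 3, with levels of 15.63, 14.52 and 14.99 in treated lung and 12.93, 13.47 and 13.51 in mock lung (mean ratio 1.75 ± 0.86, SD, n = 3, adjusted p = 0.00311). Ear2 belongs to a family of near-identical genes, so signal from its relatives cannot be told apart from its own and the value is uncertain. Atp6v0d2, a subunit of the vacuolar proton pump that acidifies lysosomes, had ratios of 1.81, 0.89 and 1.13, a mean of 1.28 ± 0.48 (SD, n = 3, adjusted p = 0.000956). Car4, a membrane-anchored carbonic anhydrase, had ratios of 1.57, 0.85 and 0.75, a mean of 1.05 ± 0.45 (SD, n = 3, adjusted p = 0.00163). For both, all 3 treated lung levels lay above all 3 mock lung levels, as for every other gene of the set except Marco. These levels are the ones that gave the calls, so the separation adds no support to them.

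The regulator and genes of lipid handling rose too. Pparg had ratios of 1.44, 0.58 and 0.41 on lung arrays 1 to 3, a mean of 0.81 ± 0.55 (SD, n = 3, adjusted p = 0.0112), and levels of 10.61, 9.99 and 9.94 in treated lung against 9.17, 9.42 and 9.53 in mock lung. Fabp4, a carrier of fatty acids in the cytosol, had ratios of 1.58, 1.10 and 0.58, a mean of 1.08 ± 0.50 (SD, n = 3, adjusted p = 0.00223). Cidec, a protein of the lipid droplet surface that promotes droplet growth, had ratios of 2.32, 0.96 and 0.69, a mean of 1.33 ± 0.87 (SD, n = 3, adjusted p = 0.00774). Replicate 1 was the highest of the 3 lung arrays for each of these genes. Fabp5, a related fatty acid carrier, was the exception, with ratios of 0.88, 0.52 and 0.92 and a mean of 0.77 ± 0.22 (SD, n = 3, adjusted p = 0.00195).

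Marco, a scavenger receptor that binds bacteria and inert particles, was the least certain of the 10. Its ratios were 1.34, -0.15 and 1.09 on lung arrays 1 to 3, a mean of 0.76 ± 0.80 (SD, n = 3, adjusted p = 0.0464). The levels were 14.86, 13.15 and 14.38 in treated lung, against 13.53, 13.29 and 13.29 in mock lung, so the treated cells of replicate 2 were below all mock lung cells. The call was lost without lung replicate 1 (0.47, adjusted p = 0.203) and without lung replicate 3 (0.60, adjusted p = 0.184), and in 10 of 15 alternative settings in all. Without lung replicate 2 the ratio was 1.22.

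Lung replicate 1 gave the highest ratio for 9 of the 10 genes, and replicate 3 gave the highest for Fabp5. The median over the genes was 1.69 on lung replicate 1, 0.93 on replicate 2 and 1.01 on replicate 3. Over all genes tested the medians of these arrays were 0.009, 0.016 and 0.025, and the SDs of the log2 ratios were 0.484, 0.382 and 0.438. Without lung replicate 1 the mean ratios had a median of 0.83, and 9 of the 10 genes still passed. All 3 lung ratios were positive for 9 of the 10 genes, Marco being the other, against 35.2% of all genes.

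Since these genes moved together in lung, the sequence before their start sites is shown for the 3 with the highest lung ratios and for Marco, whose mock level differed most between the tissues. The windows hold 250 bases before and 50 after the start of the gene, from RefSeq on GRCm38.p6, 5′ to 3′ on the strand of the gene, with CG dinucleotides, the sites that DNA methyltransferases methylate, in capitals. Krt79 lies at chr15:101940275-101940574 on the minus strand, Plet1 at chr9:50494275-50494574 on the plus strand, Ear2 at chr14:44102404-44102703 on the plus strand and Marco at chr1:120504975-120505274 on the minus strand.
Krt79: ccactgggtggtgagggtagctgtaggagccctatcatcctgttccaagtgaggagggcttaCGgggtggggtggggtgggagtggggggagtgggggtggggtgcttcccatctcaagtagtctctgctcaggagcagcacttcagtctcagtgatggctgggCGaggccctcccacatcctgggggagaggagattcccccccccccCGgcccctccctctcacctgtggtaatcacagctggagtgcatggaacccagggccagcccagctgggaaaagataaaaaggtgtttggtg
Plet1: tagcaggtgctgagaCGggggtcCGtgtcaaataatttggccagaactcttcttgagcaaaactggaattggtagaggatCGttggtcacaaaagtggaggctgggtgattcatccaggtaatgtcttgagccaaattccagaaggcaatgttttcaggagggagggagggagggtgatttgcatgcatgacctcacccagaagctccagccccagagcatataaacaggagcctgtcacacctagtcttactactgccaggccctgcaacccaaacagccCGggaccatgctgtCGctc
Ear2: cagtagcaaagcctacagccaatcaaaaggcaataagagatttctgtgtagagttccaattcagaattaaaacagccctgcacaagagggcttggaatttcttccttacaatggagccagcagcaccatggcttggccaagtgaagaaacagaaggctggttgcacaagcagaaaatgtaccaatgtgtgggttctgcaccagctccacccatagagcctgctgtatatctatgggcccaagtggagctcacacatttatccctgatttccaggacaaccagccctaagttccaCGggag
Marco: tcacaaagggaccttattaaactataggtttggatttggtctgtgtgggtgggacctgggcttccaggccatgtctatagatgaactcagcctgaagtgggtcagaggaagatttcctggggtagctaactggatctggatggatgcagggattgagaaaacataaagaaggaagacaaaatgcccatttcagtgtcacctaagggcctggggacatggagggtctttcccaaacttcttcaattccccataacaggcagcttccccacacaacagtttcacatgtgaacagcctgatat
Their CG counts are 3 for Krt79, 5 for Plet1, 1 for Ear2 and 0 for Marco.

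A window was found for 7 of the 10 genes, 10 windows in all, with none for Fabp4, Fabp5 and Atp6v0d2. The median over all 32851 windows of this length was 7 CG dinucleotides, and 6 of the 10 windows had fewer. The range ran from 0 in the Marco window to 44 in 1 of 3 Pparg windows, while the others of Pparg held 13 and 2, and Car4 held 15. The PPARg response element, a direct repeat of AGGTCA with 1 base of any kind between, searched on both strands like the others, was in 0 of 10 windows and in 0.0396% of all windows. The single unit AGGTCA, which also lies inside the full element, was in 3 of 10 windows, those of Plet1 and Pparg, against 16.3% of all. The letters GAGGAAG, the core bound by PU.1, were in the Marco window alone, against 13.6% of all, and TATAAA was in 3 of 10 against 13.6%. DNA methylation and binding were not measured here, and a match of letters is a description of the window only.

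The same genes were then compared between treated and mock M-MDSCs of the bone marrow. Fabp5 rose there, by 0.67 ± 0.24 (SD, n = 3, adjusted p = 0.0116), and the other 9 genes did not pass, with means from -0.21 to 0.23 and adjusted p from 0.373 to 0.93. Of all genes tested, 14.4% passed in marrow, 7.25% higher and 7.12% lower. The median over the 10 genes was 0.02, against 0.023 over all genes.

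Fabp5 had ratios of 0.48, 0.58 and 0.94 on marrow arrays 1 to 3, with levels of 12.35, 12.31 and 12.96 in treated marrow against 11.87, 11.73 and 12.02 in mock marrow. Its treated and mock levels did not overlap, but the call was lost without marrow replicate 2 (0.71, adjusted p = 0.0544) and without marrow replicate 3 (0.53, adjusted p = 0.0501). Krt79 had ratios of 0.19, 0.16 and 0.35 and Plet1 ratios of 0.10, 0.17 and 0.35, positive on every marrow array. Neither passed with both tissues fitted together (adjusted p = 0.467 and 0.458) or with each tissue fitted alone (adjusted p = 0.0798 and 0.12). Pparg had ratios of -0.05, -0.18 and -0.33, and Atp6v0d2 had -0.10, -0.24 and -0.30. These 2 genes were negative on every marrow array and did not pass (adjusted p = 0.504 and 0.373).

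The remaining marrow ratios were 0.01, -0.04 and -0.20 for Fabp4, and 0.24, 0.11 and 0.08 for Car4. They were 0.03, 0.06 and 0.16 for Marco, and -0.58, 0.13 and -0.05 for Ear2. The 95% interval of the marrow ratio reached from -0.49 to 0.65 for Marco and from -0.60 to 0.23 for Pparg. Both tissues share a spread in this fit, so the scatter of the lung arrays enters these marrow intervals. With each tissue fitted alone, the standard error in marrow was 0.07 in place of 0.24 for Marco. For Pparg it was 0.08 in place of 0.18, and neither gene passed (adjusted p = 0.424 and 0.151). Cidec was not well above background in either channel of marrow on any array, and its marrow ratio carries no measurement of a level. Plet1 was above background in treated marrow on 3 arrays and in mock marrow on 0. Its fitted marrow ratio was 1.15-fold and did not pass (adjusted p = 0.458), with a 95% interval from -0.20 to 0.61 on the log2 scale. Atp6v0d2 was above background in treated marrow on 0 arrays and in mock marrow on 3, and Fabp4 on 1 and on 2. With the scanner software's processed signals, Plet1 was at 1.83 (adjusted p = 0.0136) and Atp6v0d2 at -2.60 (adjusted p = 0.000597) in marrow.

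The response was compared between the tissues as lung minus bone marrow. The fit called it higher in lung for 8 of the 10 genes, by 0.91 to 1.91 on the log2 scale, and it did not pass for Marco and Fabp5. Cidec is among the 8 but had no measured level in marrow, so its difference is given as a value of the fit and not as a difference in response. Plet1, Atp6v0d2 and Fabp4 were dim in at least 1 marrow channel, as given above, which limits their differences. Of all genes tested, 15.2% passed, 9.78% with a higher and 5.44% with a lower response in lung. Ear2 differed most, by 1.91 (adjusted p = 0.0204), followed by Plet1 by 1.84 (adjusted p = 0.00474), Krt79 by 1.82 (adjusted p = 0.00799) and Atp6v0d2 by 1.49 (adjusted p = 0.00611). The difference was 1.37 for Cidec, 1.16 for Fabp4, 0.99 for Pparg and 0.91 for Car4 (adjusted p = 0.0492, 0.0167, 0.0377 and 0.0262).

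Every lung ratio lay above every marrow ratio for 8 of the 10 genes, against 21.6% of all genes. They are the 8 genes called from these same ratios, so the separation adds no support to the calls, and Cidec has the same limit. The difference of Marco was 0.68 with a 95% interval from -0.13 to 1.48 (adjusted p = 0.214), and without lung replicate 2 it was 1.13 and passed (adjusted p = 0.00415). The difference of Fabp5 was 0.11 with an interval from -0.26 to 0.47 (adjusted p = 0.67), so a lung response larger than the marrow response by more than 0.47 lay outside it. Leaving out any 1 of the marrow arrays left 3 of the 8 calls, those of Krt79, Plet1 and Atp6v0d2. Without lung replicate 2 the calls of Pparg (adjusted p = 0.0583) and Cidec (adjusted p = 0.0696) were lost. With median centring 0 of the 10 differences passed. With processed signals 5 passed, and the difference was 0.23 for Plet1, which did not pass (adjusted p = 0.775), and 3.90 for Atp6v0d2.

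Mock levels showed how far the genes already differed between the tissues without treatment. In mock lung 9 of the 10 genes were higher than in mock marrow and Car4 was lower, with a median log2 difference of 1.79. Cidec is counted among the 9 with the limit given below. This comparison called 65.9% of all genes, 29.6% higher and 36.3% lower in mock lung, and the median over all genes was -0.038. Marco stood out with levels of 13.53, 13.29 and 13.29 in mock lung against 7.56, 7.58 and 7.39 in mock marrow, a 58-fold difference (log2 5.86 ± 0.09, SE, adjusted p = 3.19e-08).

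Plet1 was at least 11.5-fold higher in mock lung (adjusted p = 8.32e-08) and Cidec at least 3.3-fold, since neither was well above background on any mock marrow array. Cidec passed the filter on dim probes through its signal in lung alone. Its direction was thus set by the filter, and its call is no support. These are lower bounds, taken against the higher of the dim probe's own level and the lowest level measured above background. Fabp4 was 6.67-fold, Atp6v0d2 5.96-fold and Pparg 3.62-fold higher in mock lung (adjusted p = 8.96e-06, 8.46e-07 and 3.11e-06). Ear2 was 2.39-fold, Krt79 2.28-fold and Fabp5 2.03-fold higher (adjusted p = 0.0013, 0.000121 and 0.000334). With processed signals the log2 difference was 7.20 for Marco, against 5.86 with normexp and loess, and 4.41 against 2.74 for Fabp4. It was 4.37 against 2.58 for Atp6v0d2 and 2.69 against 1.86 for Pparg. Over the 13 alternatives it reached 6.70 for Plet1, against 3.53 in the main fit, and 5.45 for Cidec, against 1.72. These folds depend on the signals used, while their direction and calls held. Every mock lung level lay above every mock marrow level for 9 of the 10 genes, against 33.1% of all genes. They are the 9 genes called higher from these same levels, Cidec with its limit, so the separation adds no support to the calls.

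**Figure D2:**
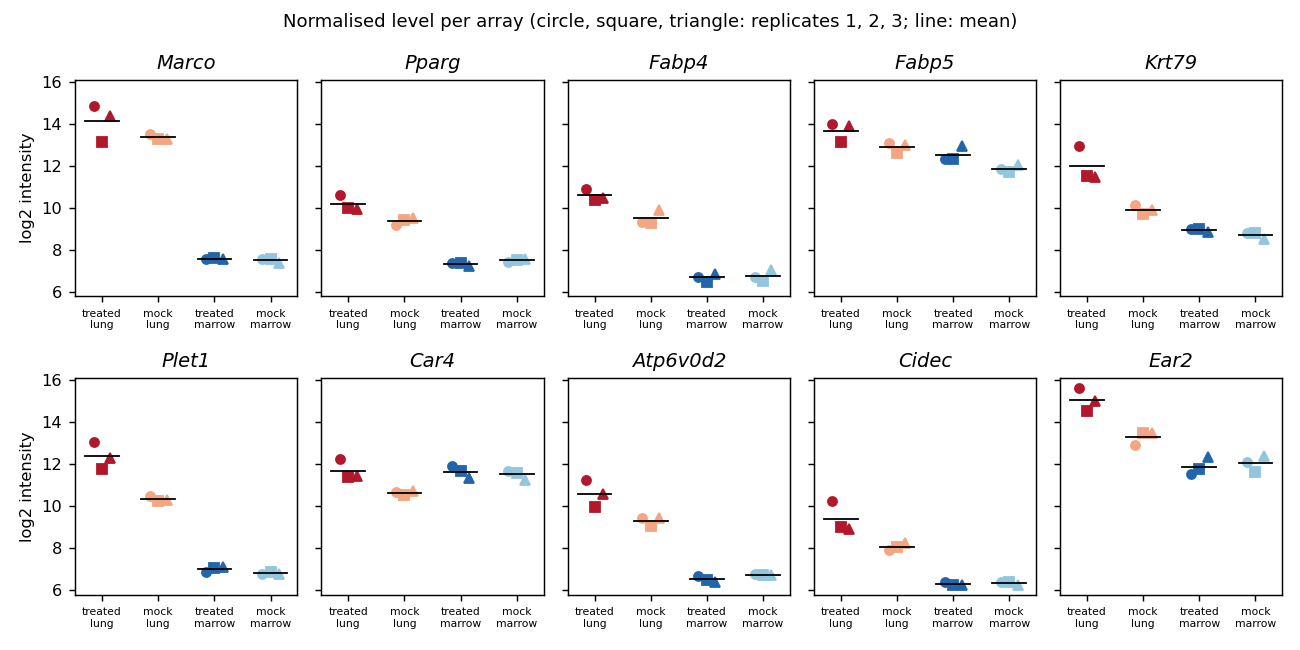
Normalised log2 intensity of each gene on each array in treated lung, mock lung, treated marrow and mock marrow (circle, square and triangle for replicates 1 to 3, line for the mean). Lung levels lie above marrow levels for 9 of 10 genes in mock cells, and Car4 is the exception with 10.65 in mock lung against 11.51 in mock marrow.

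For Marco, Pparg, Fabp4, Krt79, Plet1, Atp6v0d2, Cidec and Ear2 the mean levels were highest in treated lung and next in mock lung, followed by the marrow groups, whose treated and mock levels did not pass as different. Fabp4 averaged 10.60 ± 0.28 in treated lung, 9.51 ± 0.33 in mock lung, 6.70 ± 0.19 in treated marrow and 6.77 ± 0.26 in mock marrow (log2, SD, n = 3 each). Marco averaged 14.13 ± 0.89 in treated lung, 13.37 ± 0.14 in mock lung, 7.59 ± 0.04 in treated marrow and 7.51 ± 0.10 in mock marrow. Fabp5 kept the same order with treated marrow above mock marrow, at 13.67 ± 0.47, 12.90 ± 0.26, 12.54 ± 0.36 and 11.87 ± 0.14. Car4 was at 11.70 ± 0.47 in treated lung, 10.65 ± 0.09 in mock lung, 11.65 ± 0.30 in treated marrow and 11.51 ± 0.23 in mock marrow. Its treated lung level thus lay within the spread of both marrow groups, and its mock lung level lay below all others.

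Car4, Cidec, Plet1 and Atp6v0d2 each had 2 probes, which let the values be read at different places of the transcript. The brighter Car4 probe, A_55_P2114680, lies on chromosome 11 from 84779487 to 84779546 of mm9, and the dimmer one, A_55_P2087182, from 84777667 to 84777726. The dimmer probe had lung ratios of 3.12, 1.95 and 1.92, a mean of 2.33 ± 0.68 (SD, n = 3, adjusted p = 0.000284 over all probes), and was not well above background on any marrow array in either channel. By that probe Car4 was at least 3.54-fold higher in mock lung than in mock marrow and at least 17.5-fold higher in treated lung than in treated marrow. The dimmer probe passed the filter on dim probes through its signal in lung alone. The direction of these bounds was thus set by the filter, and they are no support. The brighter probe was lower in mock lung than in mock marrow, a disagreement whose origin was not tested, and both probes rose in treated lung.

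The dimmer Cidec probe, A_55_P1969128 on chromosome 6 from 113378116 to 113378175, had lung ratios of 1.07, 0.29 and 0.09 and did not pass (0.48 ± 0.52, SD, n = 3, adjusted p = 0.0552 over all probes). The brighter one, A_55_P1969131 from 113374630 to 113374689, carries the call given above. For Plet1 the dimmer probe, A_52_P506995 on chromosome 9 from 50307294 to 50307353, had a mean of 1.60 ± 0.60 beside 2.04 ± 0.55 for the brighter A_51_P131561. For Atp6v0d2 the dimmer probe, A_52_P71686 on chromosome 4 from 19804304 to 19804363, had 1.23 ± 0.40 beside 1.28 ± 0.48 for A_66_P124179 (SD, n = 3 each). On the same lung arrays 1 to 3 the brighter Plet1 probe was the higher each time, with 2.62, 1.53 and 1.97 against 2.27, 1.12 and 1.41. For Atp6v0d2 the brighter probe had 1.81, 0.89 and 1.13 against 1.67, 0.87 and 1.15.

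Other genes known to be high in alveolar macrophages were read beside these 10. Of 18 such genes, 14 rose in treated lung, 0 fell and 4 did not pass, with a median log2 ratio of 1.48. Mrc1, the mannose receptor, rose by 2.78 ± 0.64, Cd9, a tetraspanin, by 1.66 ± 0.18, F7, coagulation factor VII, by 1.53 ± 0.37 and Itgax, the integrin CD11c, by 1.42 ± 0.22 (SD, n = 3, adjusted p from 7.8e-05 to 0.000265). Siglecf, a lectin used to gate alveolar macrophages and eosinophils, rose by 2.06 ± 0.80. Chil3, a secreted chitinase-like protein, was at 0.28 ± 0.58 and did not pass (adjusted p = 0.343), like Ctsk, Il18 and Slc39a2. On lung replicates 1 to 3 the median of these genes was 1.81, 1.24 and 1.23, highest on replicate 1 as for the 10 genes.

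In treated marrow 3 of the 18 genes rose, namely Cd9 by 0.71 ± 0.22, F7 by 1.49 ± 0.16 and Lpl by 1.31 ± 0.20 (SD, n = 3, adjusted p = 0.00654, 0.00174 and 0.0101), 0 fell and 15 did not pass. Lpl, the enzyme that frees fatty acids from lipoproteins, had a ratio of 1.42 ± 0.65 in lung, and the difference between the tissues was 0.11 and did not pass (adjusted p = 0.818). For F7 it was 0.03 and did not pass either (adjusted p = 0.92). In 9 of the 18 genes the response was higher in lung than in marrow, against 9.78% of all genes, with a median difference of 1.03. Fabp1 and Krt19 are among the 9 but had no measured level in marrow. In mock cells 13 of the 18 were higher and 1, Chil3, was lower in lung than in marrow, with a median of 1.66. Over all genes 29.6% were higher and 36.3% lower. Fabp1, Krt19 and Ctsk passed the filter on dim probes through lung alone. Their direction in mock cells was thus set by the filter, and their calls are no support.

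Target genes of PPARg gave a median of 0.76 in lung, where 7 of 10 rose, 0 fell and 3 did not pass. Cd36, a scavenger receptor for oxidised lipid, rose by 1.47 ± 0.18, Abcg1, a cholesterol exporter that is also on the list above, by 0.99 ± 0.33, and Pdk4, a kinase that restrains glucose oxidation, by 0.41 ± 0.12 (SD, n = 3, adjusted p from 7.6e-05 to 0.00299). Lpl, counted here too, rose as given above. Nr1h3, the oxysterol receptor LXR alpha, was at 0.07 ± 0.23 and did not pass (adjusted p = 0.628). In marrow 3 of these 10 genes rose, Lpl among them, 1 fell and 6 did not pass. Angptl4, an inhibitor of lipoprotein lipase, rose by 0.94 ± 0.37 in lung and by 1.61 ± 0.33 in marrow, and Plin2, a lipid droplet coat protein, rose by 0.86 ± 0.06 in lung and by 0.65 ± 0.49 in marrow (SD, n = 3 each). Acsl1, an acyl-CoA synthetase, fell by 0.38 ± 0.17 in marrow.

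The signals and transcription factors of alveolar macrophage development were mostly near 0 in lung. Of 17, 6 rose, 1 fell and 10 did not pass, with a median of 0.07. The transforming growth factor receptor gene Tgfbr1 rose by 1.43 ± 0.18, Egr2, a zinc finger factor, by 1.68 ± 0.25, Csf2ra, the alpha chain of the receptor for granulocyte-macrophage colony-stimulating factor, by 0.41 ± 0.06 and Tgfbr2 by 1.05 ± 0.38 (SD, n = 3, adjusted p from 7.7e-05 to 0.00601). Zeb2, a repressor, fell by 0.27 ± 0.06. The ligand genes Csf2 at 0.01 ± 0.22 and Tgfb1 at 0.05 ± 0.12 did not pass, nor did Bhlhe40 at -0.08 ± 0.74 and Bhlhe41 at 0.07 ± 0.07. In marrow 0 of the 17 rose, 6 fell and 11 did not pass, and Csf2ra fell there by 0.39 ± 0.12 and Tgfbr1 by 0.32 ± 0.13. The response was higher in lung for 7 of the 17, by 0.80 for Csf2ra (adjusted p = 0.00286) and by 1.76 for Tgfbr1 (adjusted p = 0.000538).

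Several of the 10 genes are also used by other cells, and lists of markers of those cells were read on the same arrays. Markers of interstitial macrophages, the macrophages of the lung tissue outside the airspace, had the highest median, 2.28, with 10 of 11 higher in treated lung, while Cx3cr1 at 0.96 ± 0.43 did not pass (adjusted p = 0.0548). Mertk rose by 2.28 ± 0.22, Lyve1 by 2.53 ± 0.35, Pf4 by 3.04 ± 0.46 and Ms4a7 by 2.10 ± 0.27 (SD, n = 3, adjusted p from 1.5e-05 to 6.3e-05). Their summed normalised intensity ranged from 115500 to 152900 in treated lung and from 24930 to 38130 in mock lung. Their medians on lung replicates 1 to 3 were 2.78, 2.11 and 1.89, the highest again on replicate 1. Monocyte markers were mixed, with a median of -0.05. Of 6, Ms4a4c and Csf1r rose, by 0.94 ± 0.21 and 0.76 ± 0.23, and Ccr2, F13a1 and S100a4 fell, Ccr2 by 1.12 ± 0.46, while Fn1 did not pass. Their sum ranged from 189600 to 219500 in treated and from 169000 to 194200 in mock lung.

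Fabp4, Pparg and Cidec are also genes of fat cells. Of 7 adipocyte markers tested, 2 rose in lung, Cidea by 0.59 ± 0.37 and Adrb3 by 0.21 ± 0.10 (SD, n = 3, adjusted p = 0.0163 and 0.0477), 0 fell and 5 did not pass. Adipoq did not pass the filter on dim probes, and Plin1 was above background on 2 treated and 0 mock lung arrays. Their summed intensity was between 808.3 and 967.4 in treated lung and between 786.8 and 841 in mock lung. It was between 871.5 and 908.3 in treated marrow and between 836.1 and 872.6 in mock marrow. Of 6 eosinophil markers, which bear on Ear2, 2 rose in lung, Ear6 by 1.69 ± 0.52 and Siglecf as above, Prg2 fell by 0.43 ± 0.18 and 3 did not pass, and Epx did not pass the filter. Their summed intensity ranged from 1946 to 3645 in treated lung and from 940 to 1020 in mock lung. The higher sum came mostly from Siglecf, which is also on the alveolar macrophage list, and Ear6. Their mean log2 levels in treated lung were 10.3 and 9.52, while those of Prg2, Ccr3, Il5ra and Alox15 lay from 6.5 to 6.83. Of 7 osteoclast markers, which bear on Atp6v0d2, Dcstamp by 0.82 ± 0.06 and Mmp9 by 1.76 ± 0.60 rose and 5 did not pass, with sums from 19840 to 35870 in treated and from 20460 to 26310 in mock lung.

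Markers of other lung cells moved as well. Endothelial markers rose in 10 of 11 cases, Kdr at -0.20 ± 0.09 being the other, with a median of 0.92, among them Cldn5 by 1.51 ± 0.18 and Ramp2 by 1.58 ± 0.24, and their sum ranged from 25520 to 32340 in treated and from 11650 to 15390 in mock lung. Markers of lung epithelium rose in 7 of 12 cases, with 5 not past the threshold, a median of 0.37 and sums from 63110 to 97460 in treated and from 18720 to 33610 in mock lung. The surfactant genes Sftpa1 and Sftpc, made by alveolar type II cells, rose by 2.32 ± 0.62 and by 2.07 ± 0.74. The epithelial medians were 0.34, 0.20 and 1.47 on lung replicates 1 to 3, highest on replicate 3. Neutrophil markers rose in 2 of 6 cases, Retnlg and Ngp, with medians of 1.86, 2.13 and -0.23 on these arrays and sums from 8337 to 19930 in treated and from 5588 to 11530 in mock lung. The 3 B cell markers tested, Cd79a, Ms4a1 and Cd79b, fell, with a median of -1.33 and sums from 1277 to 1558 in treated and from 2794 to 4613 in mock lung. The part of these cells in the values of the 10 genes was not tested.

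**Figure D3:**
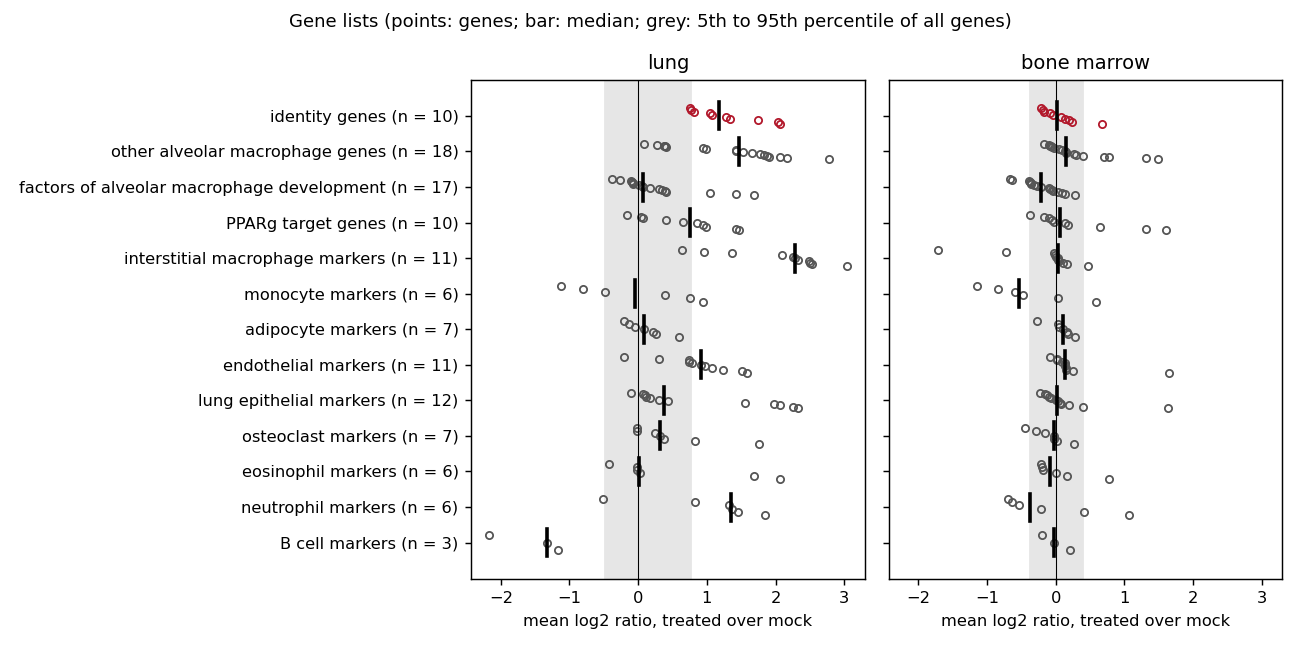
Mean log2 ratio of treated over mock for each gene of each list in lung (left) and bone marrow (right), with a bar for the median and the 5th to 95th percentile of all genes in grey. The 10 identity genes, in red, lie to the right of 0 in lung and around 0 in marrow, and the interstitial macrophage markers have the highest lung median at 2.28.

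Among 16489 other genes with a symbol, those whose ratios on the 6 arrays lay nearest to the mean profile of the 10 genes were Aplp1, Sult4a1, Kazald1, Plekhg5 and Chst7. Their root mean square distances were 0.067, 0.097, 0.11, 0.11 and 0.122 on the log2 scale, against 0.21 to 0.632 for the 10 genes themselves, which make up that mean. Aplp1, a relative of the amyloid precursor protein, had ratios of 1.88, 1.00 and 1.17 in lung and 0.03, 0.13 and 0.15 in marrow. Among the 10 genes Car4 lay nearest to the mean profile and Fabp5, which rose in both tissues, lay farthest from it.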

How the data were processed

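RNA of sorted M-MDSCs was hybridised to 6 dual-colour mouse arrays. The deposited scanner output gives the intensity of each spot, per the file headers from Agilent Feature Extraction 10.7.3.1, placed on mm9, together with a log10 ratio of processed signals. The authors' deposited matrices hold log2 ratios, made with limma per the submitters' processing notes, with settings not given in the sources used here. Their headings name mock over treated, but their values correlated with Cy5 over Cy3 at 0.986 to 0.997 across 43173 spots. Following the labelled dyes, positive means higher in treated cells.

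Ratios were computed with limma 3.58.1 in R 4.3.3: normexp with offset 50 on mean signals, loess within arrays, controls at weight 0, and outlier spots left out. Probes well above background on at least 2 arrays of 1 of the 4 combinations of tissue and channel were kept (27726 of 39429), and each gene took its brightest probe. Both tissues were fitted together (4 residual and 3.49 prior degrees of freedom). Mock levels are Cy3 after Aquantile. The self-test ran on simulated data.

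The genes, lists and alternatives were chosen with earlier results of these data known, and 2 marker genes are not reported here. All 10 genes, up to 4 genes of each list with the smallest lung p, any gene on which a sentence turns and the 5 nearest genes are named. Same-numbered arrays of the tissues did not deviate together (correlations of 0, 0.12 and 0.05), so the numbers were not taken as pairs.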

Additional observations from a re-analysis of the deposited data

Results flagged for a closer look

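For 8 genes the test of the difference itself called the response larger in lung than in bone marrow. On the log2 scale the difference was 1.91 for Ear2, 1.84 for Plet1, 1.82 for Krt79, 1.49 for Atp6v0d2, 1.37 for Cidec, 1.16 for Fabp4, 0.99 for Pparg and 0.91 for Car4, with adjusted p from 0.00474 to 0.0492 (limma's moderated test). The tissues lay on different slides, which cannot be told apart from the tissue. Cidec was above background on 0 marrow arrays in either channel, so its value does not compare measured responses. Plet1 was above background on 0 mock marrow arrays and Atp6v0d2 on 0 treated marrow arrays. Fabp4 was above it on 1 treated and 2 mock marrow arrays. The marrow ratios of these genes are thus limited by dim signal too. The calls of Krt79, Plet1 and Atp6v0d2 held when any 1 array was left out. With median centring in place of loess, however, 0 of these 8 differences passed. With processed signals the difference of Plet1 was 0.23 and did not pass (adjusted p = 0.775).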

How the results depend on the processing

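In lung all 10 genes kept a positive ratio under all 15 alternatives, and Krt79, Plet1, Fabp4 and Atp6v0d2 also kept their calls. Median centring in place of loess moved the median of all genes to 0.2 in marrow, 0.122 in lung and -0.058 in the difference. It called 0 genes in marrow (3954 at an unadjusted p under 0.05), against 3181 with loess (7375 unadjusted), 963 in lung (92.4% higher, against 58.7%) and 33 in the difference, and of the 10 genes 0, 4 and 0. Background from negative controls called 5495 genes in marrow. The processed signals of the scanner software called 6352 genes in marrow, 53.3% higher among those of the difference against 64.3%, and of the 10 genes 3 in marrow and 5 in the difference. With them Plet1 was at 1.83 and Atp6v0d2 at -2.60 in marrow, and both passed. Leaving out 1 array gave 980 to 4069 genes in marrow, 5131 to 7767 in lung, 1496 to 2820 in the difference and 12757 to 14503 in mock cells. Of the 10 genes it left 0 to 1, 9 to 10, 3 to 8 and 10. Without marrow replicate 2 the share of higher calls in the difference was 75.5%. Among other alveolar macrophage genes, 5 in place of 9 passed in the difference without marrow replicate 1 or 2. The causes were not tested, and each such fit has fewer samples. The normexp fit left negative controls at 240.3 in Cy5 on marrow replicate 1, 87 on lung replicate 2 and 13.32 to 15.97 on the others, which limits low signals there.

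With the replicate number as a block, 2861 genes and 8 of the 10 genes passed in the difference, and 13543 genes and all 10 in mock cells, so no call of the 10 genes changed. Of the other alveolar macrophage genes 8 in place of 9 passed in the difference. Same-numbered arrays correlated at 0, 0.12 and 0.05 in their ratios and at -0.15, -0.08 and -0.07 in their mock levels.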
